A study of Homo sapiens with 2 samples.

Results

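Aminoacyl-tRNA synthetases are described here in the human lung adenocarcinoma line A549, with and without a stably transduced ATOH8 gene. The members were 36 genes on a list of symbols, taken from the 2 expression tables and joined by gene identifier. They comprised 20 cytosolic enzymes or subunits and 16 mitochondrial enzymes, the latter being those whose symbol ends in 2. All 36 had a value in both libraries, among 18786 genes that did, and all 36 passed the filter on low values (a mean of at least 1 FPKM, a read level scaled by transcript length and library total). One library came from cells carrying an empty retroviral vector and the other from cells carrying the retrovirus with ATOH8, a transcription factor gene of the bHLH family. They are called vector and ATOH8 below. The cells of both libraries were grown in the same medium with serum. The labels give no clone number, promoter or time after transduction. Each group held 1 library, so every difference below compares 2 libraries, has no replicate error and carries no p-value.

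Each synthetase joins one amino acid to its matching tRNA, the step that supplies the ribosome with charged tRNA. Nuclear genes encode both sets of enzymes. One set works in the cytosol, and the other is imported to charge the tRNAs that translate mitochondrially encoded respiratory chain subunits. GARS and KARS each give both the cytosolic and the mitochondrial enzyme from 1 gene, and the rule counted them as cytosolic. EPRS carries the glutamyl and the prolyl enzyme in 1 polypeptide, whereas FARSA and FARSB encode the subunits of a single phenylalanyl enzyme. Many cytosolic synthetase genes are known targets of ATF4, the transcription factor of the amino acid response.

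ATOH8 itself was at 0.786 FPKM with vector and 182 FPKM with ATOH8, which placed the libraries as labelled. The vector file listed 20966 genes and the ATOH8 file 20870, and the sources used here state no read depth. Epithelial KRT8 and KRT18 were at 2012 FPKM or more in both libraries and CDH1 was at 15.4 and 54.1 FPKM. EPCAM was at 1.70 and 2.23 FPKM and KRT19 at 0.219 and 0.0700 FPKM, and the lung lineage factor NKX2-1 reached at most 0.410 FPKM. SFTPC, a surfactant protein gene of alveolar cells, was unlisted with vector and at 0.0314 FPKM with ATOH8. Fibroblast, leukocyte and endothelial markers were unlisted or at most 0.332 FPKM, except CD68, at 2.14 and 15.4 FPKM, whose part in the values below was not tested. In bulk RNA, fewer cells with a transcript and less transcript per cell cannot be told apart.

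Cytosolic synthetase transcripts were lower in the ATOH8 library, except QARS and, after centring, SARS, and mitochondrial ones lay closer to the typical gene. The 20 cytosolic members summed to 1435 FPKM with vector and 754 FPKM with ATOH8, a ratio of 0.526. The 16 mitochondrial members summed to 289 and 198.5 FPKM, a ratio of 0.687. Over all genes tested, the ratio of the sums was 0.953. Such sums weigh abundant genes most and do not give the change of a typical gene. As deposited, the median log2 fold, on FPKM + 1, was -0.30 over all genes tested. It was -1.07 for the cytosolic and -0.43 for the mitochondrial members. Before any centring, 19 of 20 cytosolic and 13 of 16 mitochondrial members were lower in the ATOH8 library, against 7991 of 12342 genes tested.

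**Figure D1:**
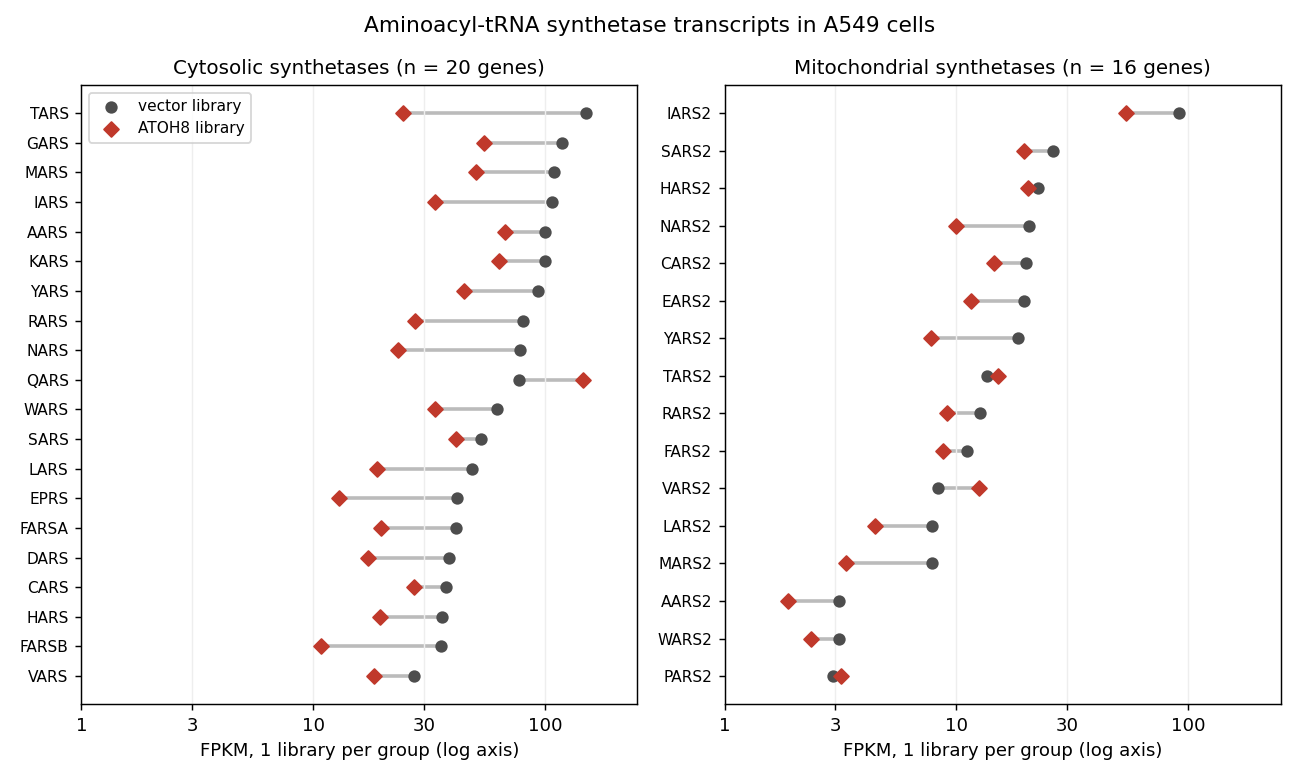
FPKM of each synthetase gene (horizontal log axis) in the vector library (circles) and the ATOH8 library (diamonds), 1 library per group with no error bars, ordered by the vector level. TARS moved from 151 to 24.5 FPKM, and QARS was the cytosolic member with the higher value in the ATOH8 library.

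Folds were taken as log2(FPKM + 1) in the ATOH8 library minus the same in the vector library. The median of this fold was -0.36 over genes with a mean of at least 5 FPKM, and log2 folds below are relative to that median gene unless stated otherwise. On this scale the cytosolic list had a median of -0.71 and ranged from -2.22 to 1.28, and the mitochondrial list had a median of -0.07 and ranged from -0.80 to 0.89. All genes tested had a median of 0.06. At least 2-fold below the median gene were 6 of 20 cytosolic members, 0 of 16 mitochondrial members and 1168 of 12342 genes, or 9.46%. At least 2-fold above it were 1 of 20, 0 of 16 and 12.8% of all genes. Below the median gene by any amount were 18 of 20 cytosolic members, 10 of 16 mitochondrial members and 5801 of 12342 genes.

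TARS, the cytosolic threonyl-tRNA synthetase (ENSG00000113407, chromosome 5, 33440696 to 33469539, plus strand, GRCh38), differed most. It was at 151 FPKM with vector and 24.5 FPKM with ATOH8, 6.16 times lower, with a log2 fold of -2.22. Among 12342 genes, 12314 had a log2 fold at or above that of TARS. In the vector library TARS was the most abundant of the 36 synthetases per transcript length, and in the ATOH8 library it ranked 13.

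Another 5 genes were also at least 2-fold below the median gene. NARS, the asparaginyl enzyme, was at 78.3 FPKM with vector and 23.2 FPKM with ATOH8 (log2 fold -1.35). IARS, the isoleucyl enzyme, was at 107 and 33.6 FPKM (log2 fold -1.29). FARSB, the beta subunit of the phenylalanyl enzyme, was at 35.5 and 10.8 FPKM (log2 fold -1.27). These 3 genes had nearly the same log2 fold, although FARSB was far less abundant than the other two. EPRS, the glutamyl and prolyl enzyme, was at 41.8 and 12.95 FPKM (log2 fold -1.26). RARS, the arginyl enzyme, was at 80.1 and 27.4 FPKM (log2 fold -1.15). The transcripts of TARS, NARS, IARS, FARSB, EPRS and RARS were each at 0.342 of their vector level or less.

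A second set of cytosolic members lay between the median gene and the 2-fold line. LARS, the leucyl enzyme, was at 48.3 FPKM with vector and 18.8 FPKM with ATOH8 (log2 fold -0.95), just inside that line. DARS, the aspartyl enzyme, was at 38.4 and 17.2 FPKM, and MARS, the methionyl enzyme, at 109.8 and 50.3 FPKM, each with a log2 fold of -0.75. GARS, the glycyl enzyme, was at 118 and 54.4 FPKM (log2 fold -0.74). YARS, the tyrosyl enzyme, was at 93.2 and 44.7 FPKM (log2 fold -0.68). DARS, MARS, GARS and YARS were about as far below the median gene as the median of the cytosolic list. FARSA, the alpha subunit of the phenylalanyl enzyme, was at 41.4 and 19.6 FPKM (log2 fold -0.68), and the ratio of FARSA to FARSB transcripts went from 1.17 to 1.82. WARS, the tryptophanyl enzyme, was at 62.1 and 33.5 FPKM (log2 fold -0.51), and HARS, the histidyl enzyme, at 36.01 and 19.4 FPKM (log2 fold -0.50).

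The cytosolic members nearest the median gene were KARS, AARS, VARS, CARS and SARS. KARS, the lysyl enzyme, was at 100.1 FPKM with vector and 63.4 FPKM with ATOH8 (log2 fold -0.29). AARS, the alanyl enzyme, started at the same vector level of 100.1 FPKM and was at 67.2 FPKM (log2 fold -0.21). VARS, the valyl enzyme, was at 27.2 and 18.3 FPKM (log2 fold -0.19), and CARS, the cysteinyl enzyme, at 37.2 and 27.1 FPKM (log2 fold -0.09). SARS, the seryl enzyme, was at 52.7 and 41.4 FPKM, a log2 fold of -0.34 as deposited and 0.02 relative to the median gene. AARS and KARS ranked 5 and 6 among the 36 members in the vector library and 2 and 3 in the ATOH8 library.

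QARS, the cytosolic glutaminyl-tRNA synthetase (ENSG00000172053, chromosome 3, 49095932 to 49105135, minus strand, GRCh38), went the other way. It was at 76.8 FPKM with vector and 146 FPKM with ATOH8, 1.91 times higher. Its log2 fold was 1.28 relative to the median gene and 0.92 as deposited, and it was short of 2-fold as deposited, as TPM and after the GC correction described below. QARS ranked 11 among the 36 members in the vector library and 1 in the ATOH8 library. Among all genes tested, 908 had a log2 fold at or above that of QARS.

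The authors' deposited table of differential expression marked 8 cytosolic synthetases down and 0 up. Every gene in it has an absolute log2 ratio of at least 1.00 and a q-value of at most 0.04998. Of the genes tested here it marked 14.7% down and 5.16% up. The 8 were TARS, NARS, IARS, FARSB, EPRS, LARS, MARS and YARS. In the authors' deposited table the q-value was given as 0 for TARS, 1.96e-08 for IARS and 0.000452 for NARS, and it was 0.0480 for FARSB. No mitochondrial member was in that table, and neither were RARS or QARS. RARS, DARS, GARS and FARSA were absent although each was at least 2-fold lower as deposited, so absence does not show a smaller fold. Those q-values compare 2 libraries and not the conditions, and they rest on the same FPKM as the folds above.

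Short stretches of promoter are shown for the members whose RefSeq window held the composite element bound by ATF4 with C/EBP proteins, because ATF4 is a known regulator of synthetase genes. RefSeq windows (GRCh38.p14) of 250 bases before to 50 bases after a start site were on hand for 30 of the 36 members, 9 of them with 2 windows, and a match in either window was counted. No window was on hand for DARS, LARS, VARS, YARS, AARS2 and VARS2, which were therefore not searched. The letters TGATGNAA were searched on both strands, and no match overlapped the other motifs searched. A match was found in 7 of 16 cytosolic members (43.8%), 1 of 14 mitochondrial members (7.14%) and 1217 of 27305 genes with a window (4.46%). Capitals mark the matched letters, which read TGATGNAA directly or as its reverse complement, and each line runs 5′ to 3′ on the gene's strand.
TARS (chr5:33440956-33440985, plus strand, first matched base 3 bases into the transcript): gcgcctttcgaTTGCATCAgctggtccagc
NARS (chr18:57621804-57621833, minus strand, 15 bases into the transcript): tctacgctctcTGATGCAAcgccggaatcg
IARS (chr9:92293692-92293721, minus strand, 13 bases upstream): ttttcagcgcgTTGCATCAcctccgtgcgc
MARS (chr12:57488053-57488082, plus strand, 4 bases upstream): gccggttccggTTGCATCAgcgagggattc
GARS (chr7:30594834-30594863, plus strand, 33 bases upstream): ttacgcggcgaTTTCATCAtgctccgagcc
AARS (chr16:70289675-70289704, minus strand, 187 bases upstream): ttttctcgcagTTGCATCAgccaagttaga
CARS (chr11:3057407-3057436, minus strand, 2 bases upstream): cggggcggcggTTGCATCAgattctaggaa
YARS2 (chr12:32756076-32756105, minus strand, 197 bases upstream): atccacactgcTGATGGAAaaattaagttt

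In TARS, NARS, IARS, MARS, AARS and CARS the variable base was the same, so that these 6 genes carried TTGCATCA or its reverse complement. GARS and YARS2 each carried another letter at the variable position. The lines stand in order of log2 fold among the cytosolic genes, from -2.22 for TARS to -0.09 for CARS. The 7 cytosolic members with a match had a median log2 fold of -0.75, and the 9 with a window and no match had a median of -0.51 and ranged from -1.27 to 1.28, so the sets overlapped. At least 2-fold below the median gene were 3 of the 7 and 3 of the 9, against 9.46% of all genes tested. After the GC correction described below, the medians of the 7 and the 9 were -1.07 and -0.74. YARS2, the mitochondrial member with a match, had the lowest log2 fold of the mitochondrial list, -0.80. The other motifs searched were an E-box, CACGTG, found in 1 of 16 cytosolic members, 3 of 14 mitochondrial members and 8.77% of all genes. The core of the NRF1 site, GCATGCGC, was found in 0 of 16, 2 of 14 (MARS2 and YARS2) and 3.68% of all genes. A match is a match of letters in this window and does not show that a factor binds there.

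ATF4 pathway genes were listed for comparison. Of 23, 5 were at least 2-fold below the median gene and 1 at least 2-fold above it, against 9.46% and 12.8% of all genes, and their median log2 fold was -0.37. The authors' deposited table marked 7 of them down and 0 up, against 14.7% and 5.16% of all genes tested. ATF4 itself was at 225 FPKM with vector and 153 FPKM with ATOH8 (log2 fold -0.20). The lowest log2 folds were those of PSAT1, a serine synthesis enzyme (231 and 41.96 FPKM, -2.08), MTHFD2, a mitochondrial folate enzyme (125 and 36.5 FPKM, -1.39), and SLC7A11, the cystine transporter (29.95 and 9.34 FPKM, -1.22). The highest were those of VLDLR (7.14 and 13.4 FPKM, 1.18), CEBPB (0.66) and PPP1R15A (0.58). After the GC correction CEBPB (-0.01) and PPP1R15A (0.07) were near 0, and VLDLR was at 1.49. PSAT1 was then at -1.74, whereas MTHFD2 (-0.98) and SLC7A11 (-0.48) came inside the 2-fold line. ATF4 itself was at -0.63 after the correction. Of the 23, 14 lay below the median gene and 9 above it, and after the GC correction 19 lay below 0 and 4 above it, with a median of -0.63. Whether ATF4 had a part in these values or in those of the synthetases was not tested.

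Mitochondrial synthetases were spread more narrowly. YARS2, the tyrosyl enzyme, was at 18.5 FPKM with vector and 7.75 FPKM with ATOH8. MARS2, the methionyl enzyme, was at 7.88 and 3.33 FPKM (log2 fold -0.68), and NARS2, the asparaginyl enzyme, at 20.6 and 9.98 FPKM (log2 fold -0.62). As deposited, YARS2 (-1.15) and MARS2 (-1.03) were at least 2-fold lower. IARS2, the isoleucyl enzyme, was the most abundant mitochondrial member in both libraries, at 91.1 and 54.2 FPKM (log2 fold -0.38). EARS2, the glutamyl enzyme, was at 19.7 and 11.5 FPKM (log2 fold -0.36), and LARS2, the leucyl enzyme, at 7.88 and 4.46 FPKM (log2 fold -0.34).

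Members near the median gene included AARS2, at 3.12 FPKM with vector and 1.88 FPKM with ATOH8 (log2 fold -0.16), and RARS2, at 12.7 and 9.11 FPKM (log2 fold -0.08). CARS2 was at 19.9 and 14.6 FPKM (log2 fold -0.07) and SARS2 at 26.1 and 19.5 FPKM (log2 fold -0.04). FARS2, which encodes the single-chain mitochondrial phenylalanyl enzyme, was at 11.1 and 8.75 FPKM (log2 fold 0.05), and WARS2 at 3.10 and 2.36 FPKM (log2 fold 0.07). HARS2 was at 22.5 and 20.3 FPKM (log2 fold 0.22). FARS2, WARS2, HARS2 and the cytosolic SARS were lower as deposited and above the median gene after centring, so their direction depended on the scale.

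PARS2, TARS2 and VARS2 were higher in the ATOH8 library on either scale. PARS2, the prolyl enzyme, was at 2.93 FPKM with vector and 3.19 FPKM with ATOH8 (log2 fold 0.45). TARS2, the threonyl enzyme, was at 13.5 and 15.1 FPKM (log2 fold 0.51), and VARS2, the valyl enzyme, at 8.37 and 12.5 FPKM (log2 fold 0.89). VARS2 stood highest in the mitochondrial list, inside the 2-fold line.

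Comparing enzymes for the same amino acid, 13 cytosolic members had a mitochondrial partner with the matching symbol. In 11 of 13 pairs the mitochondrial log2 fold was above the cytosolic one, with a median difference of 0.61. The widest gap was that of threonine, where TARS stood at -2.22 and TARS2 at 0.51, and the ratio of TARS to TARS2 transcripts went from 11.2 in the vector library to 1.63 in the ATOH8 library. Arginine (RARS and RARS2) and valine (VARS and VARS2) each had a gap of 1.08. The gap was 0.90 for isoleucine, 0.74 for asparagine, 0.72 for histidine, 0.61 for leucine and 0.58 for tryptophan. Differences were within 0.11 for tyrosine, serine, cysteine, alanine and methionine, and the mitochondrial enzyme was the lower one for tyrosine and serine. EPRS (-1.26) was below both EARS2 (-0.36) and PARS2 (0.45), and FARSA and FARSB were below FARS2.

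**Figure D2:**
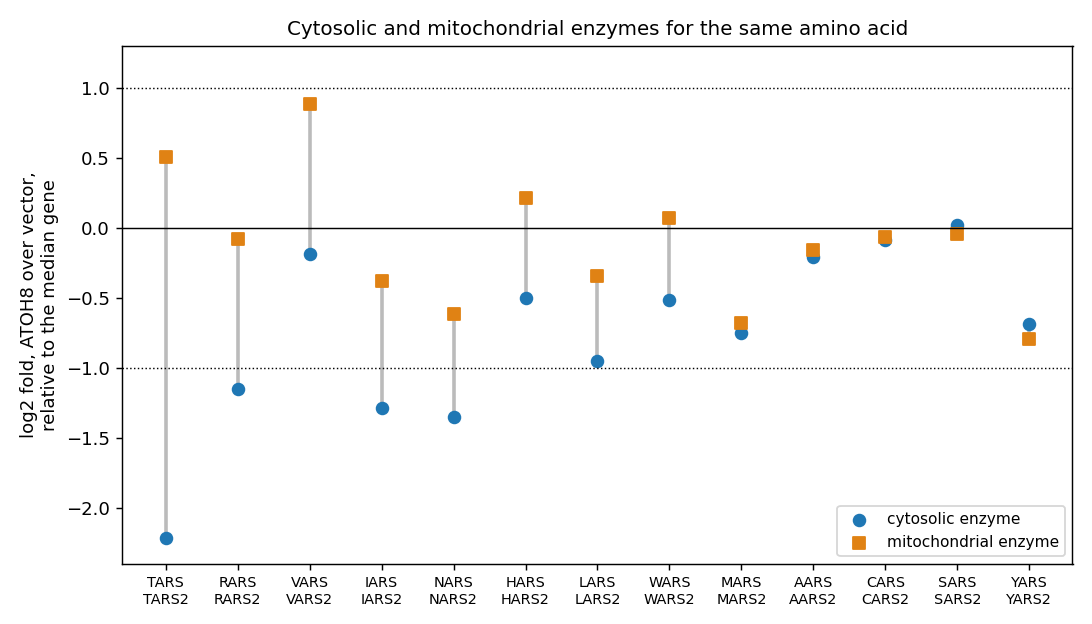
Log2 fold of ATOH8 over vector, relative to the median gene (vertical axis), for 13 cytosolic enzymes (circles) and the mitochondrial enzymes for the same amino acids (squares), 1 library per group. Dotted lines mark 2-fold; the threonine pair at the left is furthest apart, and the alanine, cysteine, serine and tyrosine pairs at the right nearly coincide.

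The cytosolic transcript was the more abundant of the pair in 13 of 13 pairs in the vector library and in 11 of 13 in the ATOH8 library. The order was turned for isoleucine, where the ratio of IARS to IARS2 was 1.18 in the vector library and 0.621 in the ATOH8 library. For histidine the ratio of HARS to HARS2 was 1.60 in the vector library and 0.954 in the ATOH8 library. HARS and HARS2 lie head to head on chromosome 5, on the minus and plus strand, with RefSeq start sites at 140691370 and 140691455 (GRCh38.p14) and 84 bases between them. HARS was at 0.538 of its vector level and HARS2 at 0.902. Both genes carried the same locus in the files together with DND1, WDR55 and ZMAT2, so the split of reads between HARS and HARS2 rests on the authors' estimation.

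List medians differed less by structural class or by membership of a complex than by location. Class I and class II synthetases differ in the fold of their catalytic domain, and EPRS, which holds a domain of each class, was counted in class I. The 10 cytosolic class I members had a median log2 fold of -0.72 and the 10 of class II a median of -0.71. In the mitochondrial list the 9 class I members had a median of -0.34 and the 7 of class II a median of 0.05. Of the cytosolic synthetases, 8 (EPRS, IARS, LARS, MARS, QARS, RARS, KARS and DARS) are known to assemble with scaffold proteins into the multi-tRNA synthetase complex. Those 8 had a median log2 fold of -0.85, and the 12 cytosolic members outside the complex had a median of -0.60. After the GC correction the order was turned, with medians of -0.65 and -0.82. The complex held QARS, at 1.28, as well as IARS, EPRS and RARS, each at least 2-fold below the median gene.

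Scaffold genes of the complex were lower as well. EEF1E1 was at 46.4 FPKM with vector and 9.08 FPKM with ATOH8 (log2 fold -1.87), and AIMP1 at 27.5 and 6.56 FPKM (log2 fold -1.56). AIMP2 was at 44.7 and 24.2 FPKM (log2 fold -0.50). After the GC correction EEF1E1 was at -1.19, AIMP1 at -0.85, inside the 2-fold line, and AIMP2 at -0.76. The authors' deposited table marked EEF1E1 and AIMP1 down.

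Among 11 other genes of tRNA charging and tRNA end processing, 2 were at least 2-fold below the median gene and 0 above it by that much, against 9.46% and 12.8% of all genes. Their median log2 fold was -0.31, or -0.07 after the GC correction. The 2 were TRNT1, which adds the CCA end to tRNAs (17.4 and 3.19 FPKM, log2 fold -1.78), and XPOT, the tRNA export receptor (51.1 and 12.2 FPKM, log2 fold -1.62). GATB, GATC and QRSL1 encode the amidotransferase that makes mitochondrial glutaminyl-tRNA without a glutaminyl synthetase of its own. Their log2 folds were -0.03, -0.26 and -0.39, beside 1.28 for the cytosolic QARS. MTFMT, the formyltransferase of the mitochondrial initiator tRNA, was at 14.6 and 13.2 FPKM (log2 fold 0.23). The remaining members of the list had log2 folds of -0.36 (SEPSECS), -0.33 (PSTK), -0.31 (AARSD1), -0.01 (DTD1) and 0.07 (SEPHS2).

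Elongation factors, which deliver charged tRNA to the ribosome and move it along, lay on both sides of the median gene. Of 10, 0 were at least 2-fold below the median gene and 2 at least 2-fold above it, against 9.46% and 12.8% of all genes, with a median log2 fold of 0.14. The 2 were EEF1A2 (31.0 and 125 FPKM, log2 fold 2.34) and EEF2 (472 and 756 FPKM, log2 fold 1.04). After the GC correction the list median was -0.13, EEF2 was at 0.50, and EEF1A2 alone of the 10 was at least 2-fold above 0, as it was with FPKM as deposited. EEF1A1, the most abundant, was at 3736 and 2817 FPKM (log2 fold -0.05). It was the lowest of the cytosolic factors. The mitochondrial factors were TUFM (0.31), GFM2 (-0.43), TSFM (-0.49) and GFM1 (-0.63). After the GC correction the mitochondrial factors ranged from -0.46 (TSFM) to -0.14 (GFM2) and the cytosolic ones from -0.15 (EEF1B2) to 1.70 (EEF1A2). Cytosolic ribosomal protein genes had a median log2 fold of -0.08 over 82 genes, with 2 at least 2-fold below the median gene. Mitochondrial ribosomal protein genes had a median of -0.30 over 78 genes, with 12 at least 2-fold below it, against 9.46% of all genes. After the GC correction the medians were -0.11 and -0.43, and 1 cytosolic and 6 mitochondrial ribosomal protein genes were at least 2-fold lower, against 5.95% of all genes. Before the correction, the cytosolic list of synthetases (-0.71) therefore lay below the cytosolic ribosomal proteins, and the mitochondrial list of synthetases (-0.07) above the mitochondrial ribosomal proteins. After it the cytosolic synthetases were at -0.78 beside -0.11. The mitochondrial synthetases were then at -0.34 beside -0.43, closer together than before. These differences were not tested.

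**Figure D3:**
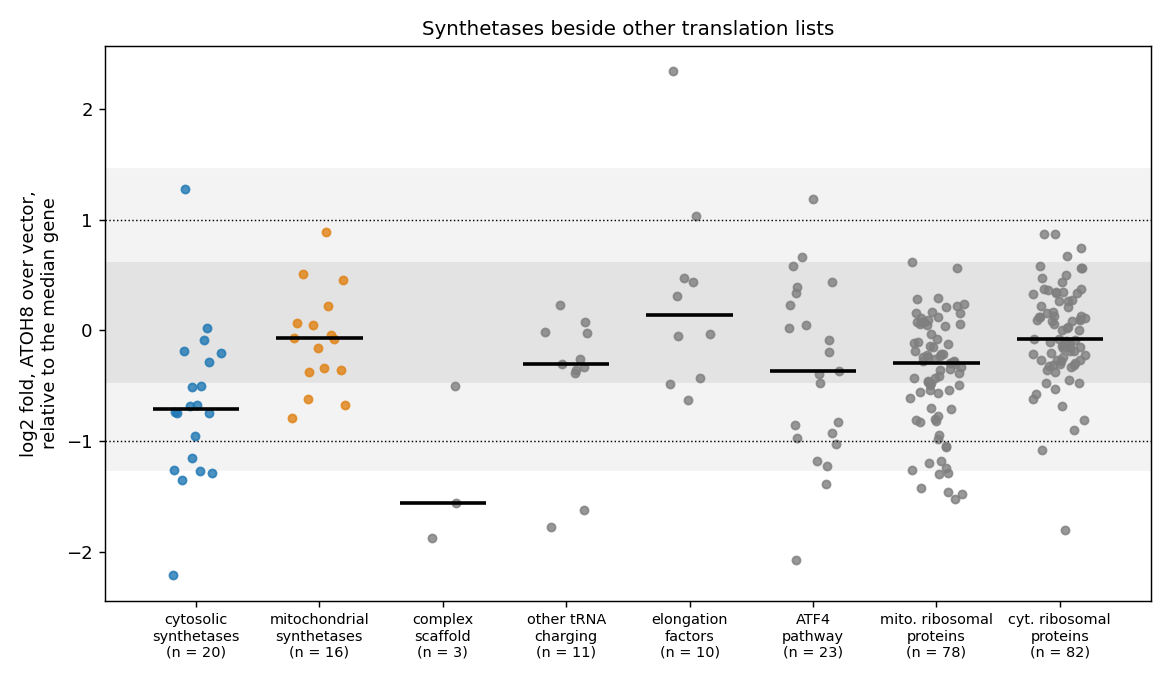
Log2 fold of ATOH8 over vector relative to the median gene (vertical axis) for each gene of 8 lists, 1 point per gene, with the list median as a black bar and 2-fold as dotted lines. Dark grey spans the quartiles of all 12342 genes (-0.47 to 0.61) and light grey the range from the 5th to the 95th percentile (-1.26 to 1.45); the cytosolic synthetases have a median of -0.71 and the mitochondrial ones -0.07.

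Base composition moved with the folds, in these genes as in all genes. The Spearman correlation of log2 fold with the GC content of the longest transcript was 0.55 over the 36 members and 0.55 over 12313 genes tested, across genes that share 2 libraries and are not independent replicates. It was 0.67 within the cytosolic and 0.43 within the mitochondrial list. Median GC content was 47.7% for cytosolic members, 51.2% for mitochondrial members and 48.5% for all genes tested. The 6 cytosolic genes at least 2-fold below the median gene had GC contents from 41.4% (RARS) to 44.3% (NARS).

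A GC correction subtracted a smooth curve of log2 fold on GC content. After it 19 of 20 cytosolic members, 10 of 16 mitochondrial members and 6156 of 12313 genes were below 0, and the list medians were -0.78 and -0.34. At least 2-fold lower were then 7 of 20 cytosolic members against 5.95% of all genes, and at least 2-fold higher were 0 of 20 against 8.33%. TARS stood at -2.00, NARS at -1.19, IARS at -1.07 and EPRS at -1.004, all still past the 2-fold line, whereas FARSB (-0.87) and RARS (-0.74) did not. FARSA (-1.23), YARS (-1.10) and MARS (-1.09), which have more GC, came to be past it. QARS was at 0.89 after the correction, and TARS2, VARS2 and HARS2 at 0.13, 0.37 and 0.03. In 9 of 13 pairs the mitochondrial member was above the cytosolic one after the correction, with a median difference of 0.55. The threonine gap was then 2.13 and the leucine gap -0.02.

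**Figure D4:**
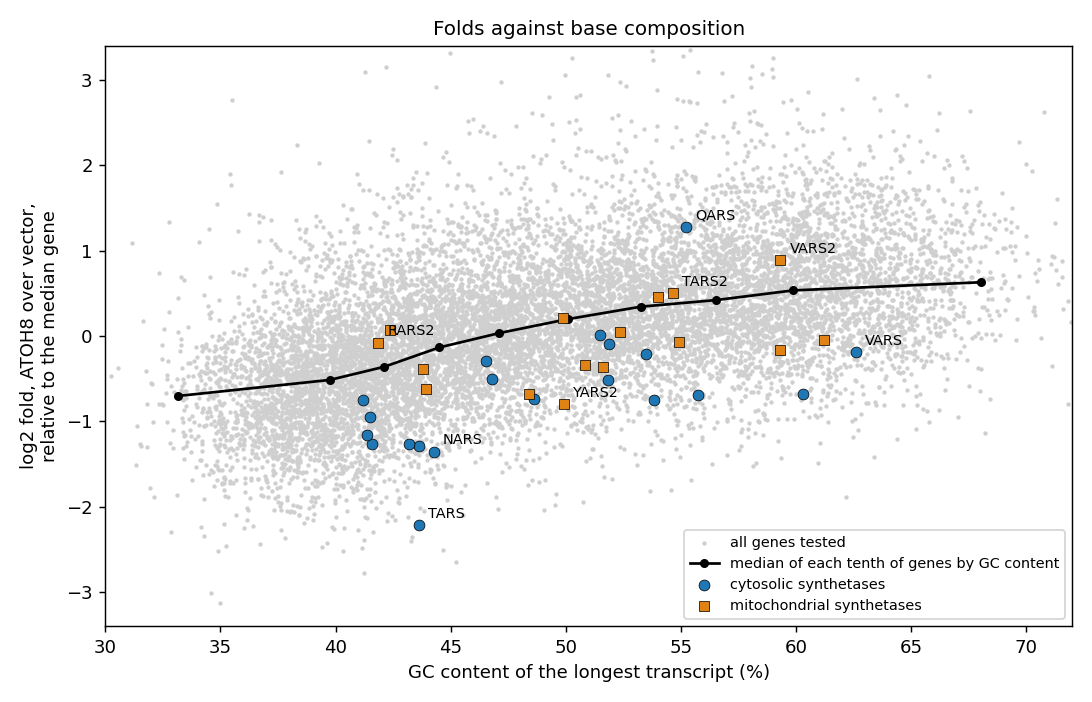
Log2 fold of ATOH8 over vector relative to the median gene (vertical axis) against GC content of the longest transcript in percent (horizontal axis), for cytosolic (circles) and mitochondrial synthetases (squares) over all genes tested (grey), with the medians of 10 bins of GC content as a black line. Of all genes, 32 lie outside the plotted range; QARS and TARS stand furthest above and below the line among the cytosolic members.

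The scale also set some counts. With FPKM as deposited, 12 of 20 cytosolic and 2 of 16 mitochondrial members were at least 2-fold lower, against 19.0% of all genes, and 0 members were at least 2-fold higher, against 6.24%. The locus given in the files spanned another gene for 20 of the 36 members, among them IARS, MARS, GARS, HARS and YARS2, and there the authors' estimates may divide reads among neighbours. For TARS, NARS, FARSB, EPRS, RARS and QARS, no other gene shared the locus and no other protein-coding gene overlapped it. Overlapping non-coding genes listed at another locus were not looked for. MARS2 and LARS2 were listed at the same 7.88 FPKM in the vector library to every digit given, and 122 of 12242 genes above 1 FPKM in that library shared their value with another gene.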

How the data were processed

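For each library the authors deposited a table of FPKM, per the file headers, from RNA of A549 cells stably transduced with vector or ATOH8 (1 library each). Per the submitters' processing notes, CASAVA, HISAT2, Cufflinks 2.2.1 and the build hg38 (GRCh38) were used. The sources used here state neither annotation release nor strand setting. Per the file headers, another deposited table holds the authors' log2 ratios with p-value and q-value. Its 2 columns of per-library values carried names that match no sample label, and they stayed unused. The log2 ratios there ran in the direction of ATOH8 over vector, as for TARS (-2.62).

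The FPKM tables were joined on the gene identifier, and rows with the same symbol were added up, which left 18786 genes. FPKM keep no read count, so no counting interval could be given. Folds used a pseudocount of 1, which understates low genes, a mean of at least 1 FPKM (12342 genes), and centring on the median of genes with a mean of at least 5 FPKM. With 1 library per group no test was run, and a 2-fold rule of size was used. GC content, gene positions and gene types came from GENCODE 29 (GRCh38). GC content was that of the longest transcript of any type, with 2 exons for CARS2 and 41 for VARS2. That transcript need not be the one expressed, and the GC-corrected folds rest on it. The GC correction was a lowess curve (fraction 0.3, statsmodels 0.14.6). Promoters were RefSeq windows (GRCh38.p14), matched by gene identifier and current symbol for 30 of 36 members. Every member is named. Of other lists, all genes of lists of at most 12 genes could be named, and of the ATF4 list the 3 highest and 3 lowest; ATF4 itself was added as the list's namesake. Members and lists were chosen with earlier results of these data known. The folds and the correction were checked on simulated data. One gene fixed for the tRNA charging list was left out of its counts and is not reported here, and 11 remained. A planned comparison of protein sequences was not made.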

Additional observations from a re-analysis of the deposited data

How the results depend on the processing

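In all, 11 alternatives were tried for the list medians, their difference and the counts past 2-fold. With no replicates, a median counted as moved beyond 0.25 on the log2 scale and a count beyond 1.5 times. With FPKM as deposited and not centred, the cytosolic median was -1.07 and the mitochondrial median -0.43, with 12 cytosolic and 2 mitochondrial members at least 2-fold lower and 0 cytosolic members at least 2-fold higher. With TPM, not centred, these values were -1.01, -0.38, 10, 2 and 0. The share of all genes past 2-fold was not computed for TPM, so these counts have none to be set against. After GC correction the mitochondrial median was -0.34 and 0 cytosolic members were at least 2-fold higher. Without the 20 members whose locus spans another gene, the mitochondrial median exceeded the cytosolic one by 0.90, from 10 cytosolic and 6 mitochondrial genes, instead of 0.64. The cause of these shifts beyond the construction of each alternative was not tested. Changing the pseudocount to 0.1 or 5, the filter to none or to a mean of at least 5 FPKM, the scaling to the upper quartile or the handling of repeated symbols, and leaving out GARS and KARS, moved none of these values past those limits. Removing the filter could not move any of them, because all 36 members passed it. Over 10 settings, TARS, NARS, IARS and EPRS were at least 2-fold lower in each, 10 other members in some, and QARS at least 2-fold higher in 7. These settings were not independent. The filter did not enter the centring, so changing it could not change a member's fold. The other handling of repeated symbols also left each member's fold equal to the main one. Below 0 in each setting that gave them a value were 26 of the 36 members, and above 0 in each were 4, QARS, PARS2, TARS2 and VARS2. None of these counts over settings was made for all genes, so they have no share to be set against. In single settings, 7991 of 12342 genes were below 0 as deposited and 5801 of 12342 relative to the median gene. AARS2, PARS2 and WARS2 had 9 settings, since the stricter filter removed them. Read depth was unknown, so no limit from depth could be set. No paired analysis was possible because each group holds 1 library.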
